A study of Arabidopsis thaliana with 8 samples.

Results

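The effect of the fhy3-68 mutation was measured in Arabidopsis thaliana plants that already carried the ag-10 mutation, by comparing 2 ag-10 fhy3-68 double mutant libraries with 2 ag-10 libraries, 4 of the 8 libraries in the series. All 19853 listed genes were compared. The tissue was whole inflorescence with flowers no older than stage 8, and both genotypes carry the ag-10 allele, so that by their labels they differ in fhy3-68. The other 4 libraries were the Ler wild type and the fhy3-68 single mutant, 2 each. The series describes the replicates as biological, without giving the number of plants pooled in a library. The labels give neither the lesion of either allele nor plant age or growth conditions, and each mutation is represented by a single allele.

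FHY3 and its homologue FAR1 are transcription factors derived from transposases, best known for activating FHY1 and FHL, whose proteins carry phytochrome A into the nucleus. FHY3 also acts in chloroplast division, chlorophyll synthesis, the circadian clock, starch and inositol metabolism, and the repression of senescence and defence. AGAMOUS (AG) is a MADS-box protein that specifies stamens and carpels and ends stem cell activity in the flower, and ag-10 is a weak allele of it. AG itself was not analysed here.

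FHY3 binds DNA at the letters CACGCGC. These letters, read on either strand, were searched in a window from 250 bases before to 50 bases after the annotated start of each gene. Among the genes that fell in the double mutant 16 had the motif in their window, and among those that rose 5 had it. The sequences shown are those of the 8 that are also named genes, by size of change or as a list member. The motif is in capitals and appears as GCGCGTG where it lies on the opposite strand. They were read from the RefSeq assembly TAIR10.1, which represents the Columbia accession, whereas the wild type of the series is Ler, and the build used in the study is not given in the sources used here. Positions of the first motif base are counted from the gene start, negative before it.
FHY1 (AT2G37678), whose protein imports phytochrome A, chr2:15802894-15802954, minus strand, motif at -134: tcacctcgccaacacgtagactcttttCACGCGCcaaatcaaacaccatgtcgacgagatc
AT2G41990, annotated as a late embryogenesis abundant protein, chr2:17527064-17527124, plus strand, motif at -76: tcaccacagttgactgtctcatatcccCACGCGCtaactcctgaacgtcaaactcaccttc
ARC5 (AT3G19720), a dynamin-related protein of chloroplast division, chr3:6855541-6855585, minus strand, motif at 32: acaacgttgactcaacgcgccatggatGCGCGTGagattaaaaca
AT2G40820, annotated as a stomatal closure actin-binding-like protein, chr2:17040309-17040347, minus strand, motif at 38: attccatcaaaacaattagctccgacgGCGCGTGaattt
AT3G07580, an uncharacterized protein, chr3:2422780-2422840, minus strand, motif at 12: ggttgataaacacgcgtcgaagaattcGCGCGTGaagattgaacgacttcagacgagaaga
SPT (AT4G36930), a bHLH factor of the carpel margin, chr4:17414035-17414095, plus strand, motif at -21: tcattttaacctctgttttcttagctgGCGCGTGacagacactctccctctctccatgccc
DBE1 (AT1G03310), a starch debranching enzyme, chr1:813304-813404, plus strand, motifs at -82 and -42: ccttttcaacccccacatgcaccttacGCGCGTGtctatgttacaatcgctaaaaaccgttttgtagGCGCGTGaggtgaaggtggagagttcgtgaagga
MIPS2 (AT2G22240), an inositol phosphate synthase, chr2:9454365-9454425, minus strand, motif at -98: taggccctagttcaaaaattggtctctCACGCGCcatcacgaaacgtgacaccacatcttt

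The deposited values are normalised read counts (reads over a library size factor, per 1000000) and are called values below, and a log2 change is the difference of 2 group means of log2(value + 0.5). Depth was 14029288 and 12727551 reads over listed genes in ag-10 replicates 1 and 2, and 14780718 and 16816619 in the double mutant. On the first principal component of these 4 libraries, with 66.2% of the variance, the double mutant lay at 34.4 and 35.27, whereas ag-10 replicate 1 lay at -45.91 and replicate 2 at -23.77. The second component, with 21.8%, separated replicate 1 from replicate 2 in both genotypes. Tissue and stage were described with marker lists. AP1, which marks young floral meristems, stood at 189.9 and 193.6 in ag-10 and 171.8 and 195.8 in the double mutant. Every listed gene reached 1 in 2 or more libraries, so reads in the 17 measured floral identity genes do not by themselves show the tissue. Of 15 markers of late flowers and seeds 1 was measured, and of 15 markers of mature pollen 8 were. The others were dropped for another reference name or not analysed here, so these counts do not show the stage. The 8 pollen markers had summed values of 62.41 and 69.38 in ag-10 against 167 and 88.46 in the double mutant. The largest share of that increase lay in VGD1, a pollen pectin methylesterase, at 2.61 and 11.03 in ag-10 and 85.43 and 16.2 in the double mutant, and its part in the results was not tested.

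A gene was called when its Benjamini-Hochberg adjusted p was under 0.05 in limma on log2(value + 0.5), two-sided, with all 8 libraries in the fit. By this rule 298 genes were called, 1.50% of those tested. Of these 197 rose in the double mutant, 0.992% of all genes, and 101 fell, 0.509%. The increases ran from 0.45 to 6.35 on the log2 scale and the decreases from -4.63 to -0.43. An increase of at least 1 was seen for 143 genes and a decrease of at least 1 for 44. With library totals in place of the deposited size factors, the split was 135 higher and 118 lower, or 53.4% higher in place of 66.1%, and the median of all genes was -0.036 in place of -0.004. In all 298 called genes the values of the 2 genotypes did not overlap, but 27.8% of all genes were higher in both double mutant libraries and 29.4% were lower in both. An unadjusted p under 0.05 was found for 4193 genes, 21.1%.

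The number of called genes depended on single libraries, including ones outside the comparison that enter the estimate of the spread. It was 3 without either Ler library, 1 without ag-10 replicate 1, 2 without ag-10 replicate 2, 10 without double mutant replicate 1 and 65 without replicate 2. It was 1820 without fhy3-68 replicate 1 and 1810 without replicate 2, the genotype whose replicates differed most. A test of the recovered whole reads with edgeR called 207 genes and DESeq2 called 1070. Of the 43 called genes named here, 10 were not called by edgeR: BCAT2, TPS8, NIT2, CEP2, MIPS2, CYP703A2, AT1G11700, AT3G15450, AT3G15500 and AT5G39520. AT3G61310, an AT-hook DNA-binding protein, was called in all 17 alternatives tried. Its values were 157.8 and 138.9 in ag-10 and 34.32 and 37 in the double mutant. The replicates of each genotype lay close together, and the log2 change was -2.04 (SE 0.10, limma adjusted p = 0.0017).

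Genes that FHY3 is known to activate in seedlings were among the largest decreases. FHY1 stood at 17.77 and 21.06 in ag-10 and at 0.68 and 0.24 in the double mutant, from 527 reads against 14. Both double mutant libraries were close to 0, and the log2 change was -4.41 (SE 0.48, limma adjusted p = 0.0186). FHL, the homologue of FHY1, stood at 0.78 and 1.23 in ag-10 and at 1.43 and 2.39 in the double mutant, a difference of 0.67 that was not called. Of the 18 measured genes of phytochrome A signalling, FHY1 was the 1 called by limma or edgeR, and the median of the list was -0.02. DESeq2 called 1 higher and 2 lower, and 5 had an unadjusted p under 0.05, beside 21.1% of all genes. The phytochromes themselves were not called by limma or edgeR, with PHYA at 104.1 and 105.2 in ag-10 and 126.3 and 138.8 in the double mutant. BBX31, a B-box protein, had values of 3.6 and 2.6 in ag-10 and 0.75 and 0.6 in the double mutant and was not called by limma or edgeR either.

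ARC5 forms the outer ring that pinches chloroplasts in 2. Its values were 76.31 and 64.18 in ag-10 and 8.7 and 7.65 in the double mutant. The gap between genotypes was wide beside the gap between replicates, and the log2 change was -3.03 (SE 0.23, limma adjusted p = 0.0101). None of the other 11 measured genes of chloroplast division was called by limma, edgeR or DESeq2, 1 had an unadjusted p under 0.05, and the median of the list was -0.03. FTSZ2-2, a ring protein inside the chloroplast, stood at 60.94 and 63.72 in ag-10 and 48.19 and 52.66 in the double mutant.

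Several of the other large decreases lay in genes with little known function. AT3G57930, annotated as a rho GTPase-activating gacO-like protein, fell furthest, from 37.8 and 45.11 in ag-10 to 2.58 and 0.42 in the double mutant. Its log2 change was -4.63 (SE 0.61, limma adjusted p = 0.0302). The late embryogenesis abundant protein gene AT2G41990 stood at 22.29 and 19.45 against 1.09 and 1.43, and the glycosyl hydrolase AT3G47010 at 5.29 and 6.43 against 0.48 and 0.36. The ranges did not overlap for either gene, with log2 changes of -3.61 and -2.79. AT2G40820 stood at 19.54 and 15.85 against 3.06 and 2.45, and AT3G07580 at 19.4 and 22.59 against 3.33 and 3.94. Smaller log2 decreases were found for the thioredoxin superfamily gene AT5G11930 (-2.25), the aldehyde dehydrogenase ALDH3H1 (-2.06) and AT1G11700 (-2.03). The last is annotated as a senescence regulator and as a protein of unknown function.

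**Figure D1:**
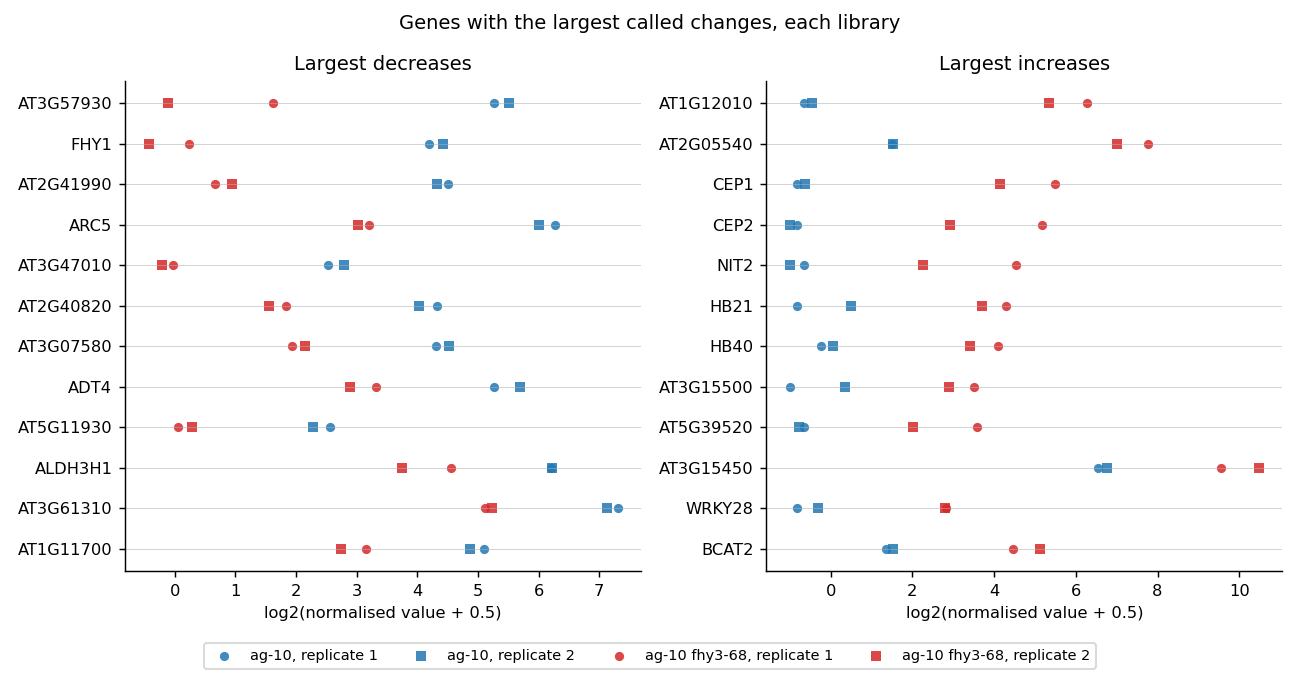
Values of the 12 largest called decreases (left) and the 12 largest called increases (right) among genes with a mean value of at least 2. The horizontal axis is log2(normalised value + 0.5), blue points are ag-10, red points are ag-10 fhy3-68, circles are replicate 1 and squares replicate 2. The colours are separated in every row, and several of the increases start from ag-10 values near 0.

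Starch and inositol genes moved in both directions. DBE1 had values of 73.77 and 61.96 in ag-10 and 18.76 and 14.29 in the double mutant, and MIPS2 had 264.9 and 249.7 against 155.6 and 132.8. Both fell, with log2 changes of -2.01 (SE 0.28, limma adjusted p = 0.033) and -0.84 (SE 0.15, limma adjusted p = 0.0499). BAM1, a beta-amylase that degrades starch, rose from 49.72 and 46.95 to 133.3 and 215.6, a log2 change of 1.8 (SE 0.22, limma adjusted p = 0.0268). The other 19 of 22 measured members were not called by limma, and the median was -0.10. Over the 22 genes 10 had an unadjusted p under 0.05, beside 21.1% of all genes. EdgeR called 1 higher and 1 lower, and DESeq2 1 higher and 4 lower. MIPS1, which makes most of the inositol in the plant, stood at 118.9 and 82.49 in ag-10 and 41.32 and 31.8 in the double mutant without being called by limma.

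Among 18 measured genes of chlorophyll synthesis, PORA and HEMA1 rose and none fell. PORA, a light-dependent protochlorophyllide reductase, stood at 4.3 and 11.72 in ag-10 and 69.39 and 63.78 in the double mutant. The ag-10 replicates differed more from each other than those of the double mutant, and the log2 change was 3.13 (SE 0.45, limma adjusted p = 0.0343). HEMA1, whose enzyme starts tetrapyrrole synthesis, rose from 255.1 and 228.3 to 363.9 and 349.8, a log2 change of 0.56 (SE 0.09, limma adjusted p = 0.0406). PORB, the close homologue of PORA, had values of 179.4 and 431.8 in ag-10 and 494.6 and 657.6 in the double mutant. It was not called, and the median of the list was 0.08. None of the 23 measured photosynthesis genes was called by limma or edgeR and 5 were by DESeq2, at a median of 0.17. An unadjusted p under 0.05 was found for 5 of the 23, beside 21.1% of all genes.

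The letters of the FHY3 motif were in 338 of 19810 windows that could be read, or 1.71%. They were in 16 of the 101 windows of genes that fell, 15.8%, and in 5 of 196 windows of genes that rose, 2.55%. Of the 12 largest decreases 5 held them (FHY1, AT2G41990, ARC5, AT2G40820 and AT3G07580), and of the 12 largest increases 0 did. The inner letters CGCG, when present without the whole motif, were in 12.3% of all windows, in 12.9% of those of genes that fell and in 14.8% of those of genes that rose. Among the genes that fell, those with the motif had a median log2 change of -1.64, and those without it -0.88. The motif alone did not mark a lower gene, since 190 of all 338 genes that held it had a log2 change below 0, with a median of -0.03. A match is not a site of binding, and no binding data were used here.

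**Figure D2:**
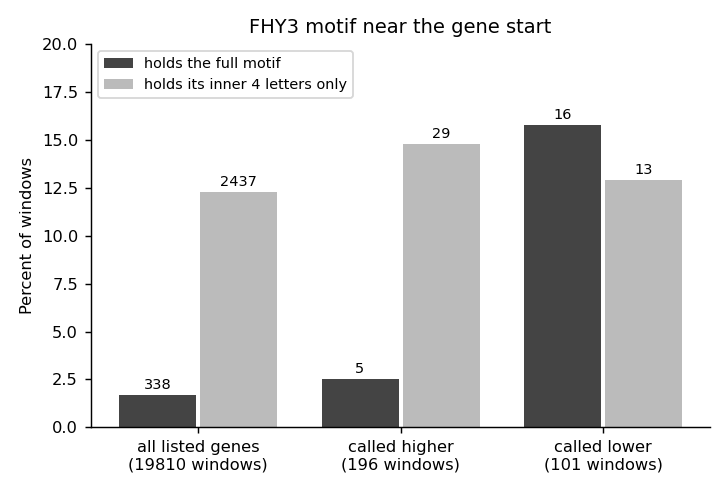
Percent of windows near the gene start that hold the whole FHY3 motif on either strand (dark bars) or its inner 4 letters without the whole motif (light bars), with the number of windows above each bar. The dark bar stands at 15.8% for genes that fell, against 1.71% for all listed genes, and the light bars lie between 12.3% and 14.8%.

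The largest increases were in genes that were almost silent in ag-10. AT1G12010, an oxygenase of the 2-oxoglutarate and Fe(II)-dependent superfamily, rose from 0.14 and 0.23 in ag-10 to 76.87 and 39.87 in the double mutant, from 5 reads to 1798. Its log2 change was 6.35 (SE 0.44, limma adjusted p = 0.0101). AT2G05540, a glycine-rich protein gene, stood at 2.33 and 2.37 against 217.7 and 128.4. Its ag-10 replicates were nearly equal, and the log2 change was 5.88 (SE 0.56, limma adjusted p = 0.0146). NIT2, a nitrilase of auxin synthesis with close copies nearby in the genome whose reads may be shared, stood at 0.14 and 0 against 22.56 and 4.3. It had 2 reads in ag-10, a ratio of reads per library size of 175 (95% interval 48.1 to 1450). WRKY28, a transcription factor of salicylic acid synthesis, had 0.07 and 0.31 against 6.52 and 6.46. AT3G15450, annotated as an aluminum-induced protein, was already well expressed at 93.1 and 108.7 in ag-10, and stood at 756 and 1430 in the double mutant, a log2 change of 3.36 (SE 0.56, limma adjusted p = 0.0432).

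Genes that respond to darkness and sugar starvation were higher in the double mutant. Of 18 measured members 3 rose, 15 were not called, and all 18 were higher in both double mutant libraries, beside 27.8% of all genes. The median log2 change was 1.04, and taken within each of the 4 pairs of libraries it lay between 1.12 and 1.33. BCAT2, which starts the breakdown of branched-chain amino acids, rose from 2.05 and 2.37 to 21.48 and 34.55, a log2 change of 3.36 (SE 0.61, limma adjusted p = 0.0499). TPS8, a trehalose phosphate synthase-like protein, rose from 41.12 and 44.42 to 131 and 195.6. KMD4, an F-box protein that acts on cytokinin signalling, rose from 35.76 and 37.84 to 107.7 and 74.06. In these genes no double mutant value reached down to ag-10, with log2 changes of 1.89 for TPS8 and 1.27 for KMD4.

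The 3 largest differences in the starvation list were not called. BT2, a BTB protein of the sugar and nitrogen response, had values of 0.28 and 0.54 in ag-10 and 15.43 and 69.04 in the double mutant, a difference of 5.21 (SE 0.98). SEN1, a marker of darkness, had 2.96 and 4.14 against 57.16 and 129.1, and ASN1, an asparagine synthetase, had 5.92 and 8.58 against 107.7 and 159.7. Replicate 2 was the higher double mutant library in each of these 3 genes. By edgeR 1 member of the list was called and by DESeq2 10, all higher.

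Bud dormancy genes gave the highest median of the 28 lists, 2.82 over 9 measured members, of which 3 rose and none fell. By edgeR 3 were called and by DESeq2 8, all higher. HB21 and HB40 are homeobox factors that act below the branching repressor BRC1 in axillary buds. HB21 stood at 0.07 and 0.92 in ag-10 and 18.96 and 12.61 in the double mutant, a log2 change of 4.15 (SE 0.54, limma adjusted p = 0.0298). HB40 stood at 0.35 and 0.54 against 16.58 and 10.16, a log2 change of 3.84 (SE 0.43, limma adjusted p = 0.0196). Neither gene exceeded 1 in ag-10, and both were above 10 in the double mutant. RD26, a NAC factor of the abscisic acid and dehydration response, rose from 3.03 and 3.83 to 13.93 and 9.15. BRC1 had values of 1.76 and 2.6 against 16.11 and 20.62, a difference of 2.82 (SE 0.59) that was not called. DRM2 was also not called, at 1.41 and 11.41 in ag-10 and 94.54 and 210 in the double mutant.

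Of 14 measured senescence genes 4 rose, 10 were not called and none fell, at a median of 1.05, while edgeR called 3 and DESeq2 7, all higher. NAP and ORE1, NAC factors that promote leaf senescence, rose from 3.24 and 6.74 to 63.95 and 36.46 and from 2.61 and 3.45 to 29.36 and 13.45. Their log2 changes were 3.23 (SE 0.49, limma adjusted p = 0.0364) and 2.54 (SE 0.37, limma adjusted p = 0.0348). CEP1, a cysteine endopeptidase also known from tapetal cell death, had 0.07 and 0.15 in ag-10 and 44.72 and 17.27 in the double mutant. It had 3 reads in ag-10, a ratio of 273 (95% interval 93.3 to 1328). CEP2, of the same family, had 0.07 and 0 against 35.41 and 7.05, from 1 read in ag-10, a ratio of 553 (95% interval 99.0 to 21895). The enzymes that dismantle chlorophyll showed smaller differences and were not called, with NYC1 at 108.2 and 116.3 against 176.2 and 152, and PAO at 45 and 48.87 against 56.55 and 46.62.

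**Figure D3:**
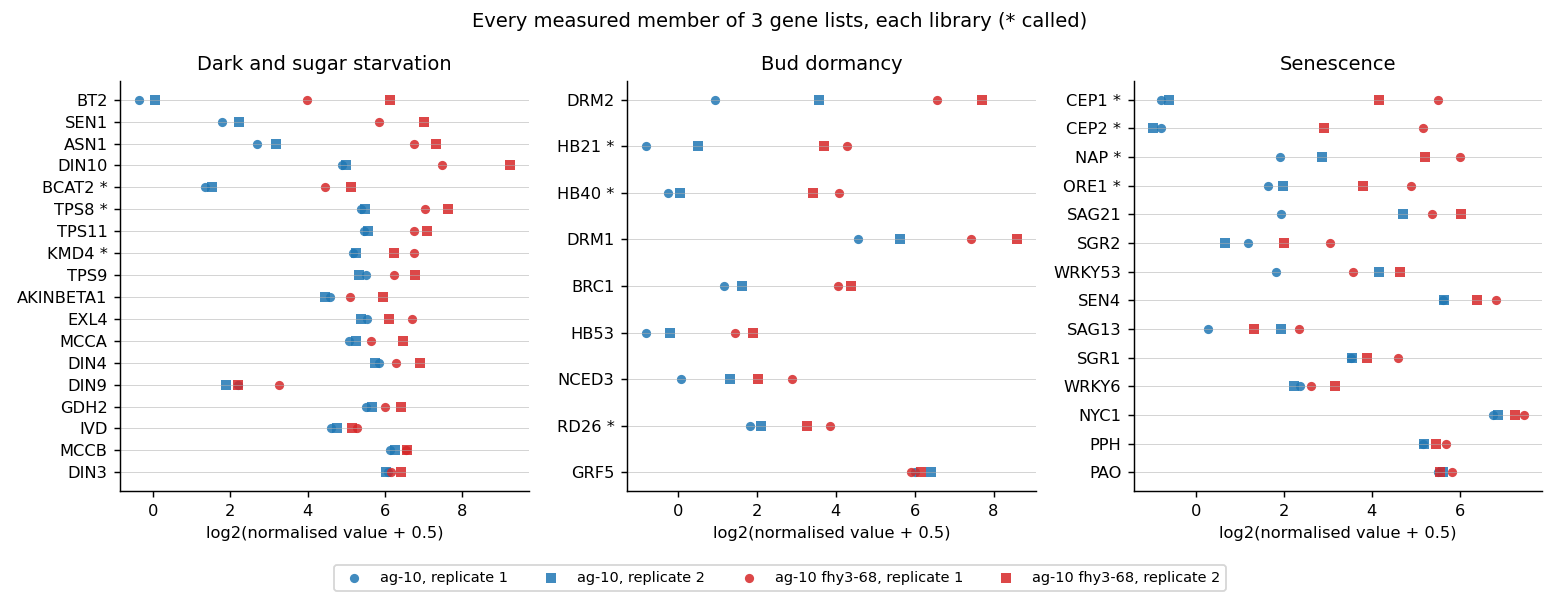
Values of every measured member of the dark and sugar starvation, bud dormancy and senescence lists in each library, as log2(normalised value + 0.5), with the called genes marked by an asterisk. Blue points are ag-10 and red points ag-10 fhy3-68, circles are replicate 1 and squares replicate 2. All 18 starvation genes have both red points to the right of both blue ones.

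Genes that respond within minutes to touch, cold and wounding, kept as a sign of handling, also differed between the groups and between replicates. None of the 17 measured members was called by limma or edgeR and 6 were by DESeq2. An unadjusted p under 0.05 was found for 14, beside 21.1% of all genes. In both double mutant libraries 16 were higher, beside 27.8% of all genes. Their summed value was 211 in ag-10 replicate 1 and 621 in replicate 2, against 1063 and 2084 in the double mutant. The median of 1.92 ranged from 0.64 to 3.48 between pairs of libraries. TCH4, a touch-induced cell wall enzyme, stood at 11.99 and 58.9 in ag-10 and 176.6 and 373.2 in the double mutant. The part of these responses in the increases was not tested.

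Defence genes of the salicylic acid pathway showed the same unevenness. WRKY18, a pathogen-induced regulator, was the 1 gene of 19 to be called, rising from 7.19 and 10.95 to 36.9 and 84.04, a log2 change of 2.58 (SE 0.37, limma adjusted p = 0.0343). The median of the list was 0.67 but ranged from -0.11 to 1.43 between pairs of libraries. PR2, a pathogenesis-related glucanase, stood at 3.81 and 49.86 in ag-10 and 22.97 and 26.12 in the double mutant, so that ag-10 replicate 2 exceeded both double mutant libraries. None of 24 jasmonate genes was called by limma or edgeR and 4 were by DESeq2, at a median of 0.70. An unadjusted p under 0.05 was found for 11 of the 24, beside 21.1% of all genes.

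In the auxin list 2 of 14 genes rose. IAA2, an auxin response repressor, stood at 9.24 and 10.95 against 20.19 and 25.82, and GH3.5, which conjugates auxin to amino acids, at 36.18 and 44.81 against 133.2 and 132.6. The ranges were apart in both, with log2 changes of 1.14 and 1.71, although the median of the auxin list was -0.06. None of 13 cytokinin response genes was called by limma, edgeR or DESeq2, or had an unadjusted p under 0.05.

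Cell division genes were lower by small amounts. AUR1, a mitotic Aurora kinase, was the 1 of 18 to be called, from 38.79 and 37.15 in ag-10 to 22.63 and 23.97 in the double mutant, a log2 change of -0.69 (SE 0.09, limma adjusted p = 0.0298). Of the others, 16 were also lower in both double mutant libraries without being called, beside 29.4% of all genes. The median of the list was -0.49, and between pairs of libraries it lay from -0.58 to -0.38. Over the whole list 16 of 18 had an unadjusted p under 0.05, beside 21.1% of all genes. EdgeR called 1 member and DESeq2 4, all lower. KNOLLE, the syntaxin of cell plate formation, stood at 126.4 and 118.5 against 77.62 and 90.67. In whole inflorescences fewer dividing cells and less RNA per cell cannot be told apart.

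Few genes of flower development were called. FUL, a MADS-box gene of the inflorescence meristem and fruit, rose from 30.68 and 33.47 to 50.77 and 50.75, a log2 change of 0.66 (SE 0.09, limma adjusted p = 0.0325), the 1 call among 17 floral identity genes. SPT fell from 32.23 and 33.55 to 19.78 and 20.44, a log2 change of -0.70 (SE 0.09, limma adjusted p = 0.0302), the 1 call among 18 carpel and ovule genes. In both genes the replicates were nearly equal. The B class genes AP3 and PI were not called, AP3 at 240.2 and 229.6 against 196.8 and 166.5 and PI at 281.2 and 299.2 against 270.5 and 272.6. None of the 20 measured meristem genes was called by limma, edgeR or DESeq2, at a median of -0.01. An unadjusted p under 0.05 was found for 3 of the 20, beside 21.1% of all genes. CYP703A2, a hydroxylase of pollen wall synthesis, fell from 109.7 and 115.4 to 56.21 and 72.26, the 1 call among 16 anther and tapetum genes. Of these 16 genes 13 were lower in both double mutant libraries, beside 29.4% of all genes, and 8 had an unadjusted p under 0.05. The list had a median of -0.38, from -0.66 to -0.23 between pairs of libraries, and edgeR called 0 members and DESeq2 5, all lower.

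Genes studied with FHY3 and AG in the flower meristem were mostly not called by limma. WUS, the homeobox gene that maintains stem cells in the floral meristem, stood at 11.85 and 10.19 in ag-10 and 8.02 and 6.99 in the double mutant, a log2 difference of -0.52 (SE 0.15, limma adjusted p = 0.113). SEP2, a MADS-box gene needed for floral organ formation, stood at 234.2 and 276.6 against 201 and 165.9, a log2 difference of -0.48 (SE 0.13, limma adjusted p = 0.102). Both genes were lower in both double mutant libraries, as were 29.4% of all genes. KNU, a repressor of WUS, had values of 1.2 and 0.61 against 1.22 and 1.31, too low for a clear difference at this depth. CRC, a carpel and nectary gene, differed by -0.08 and SEP1 by -0.25. Over the 7 measured study genes, FHY3 and FAR1 included, 4 had an unadjusted p under 0.05, beside 21.1% of all genes. SEP2 was lower by DESeq2 (DESeq2 adjusted p = 0.0276).

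FHY3 mRNA was not called, at 103.6 and 103.4 in ag-10 and 85.84 and 91.75 in the double mutant, and as the lesion is not given this does not check the genotype. FAR1 rose from 44.64 and 45.57 to 66.06 and 65.81, a log2 change of 0.54 (SE 0.08, limma adjusted p = 0.0353). The other 12 measured relatives of the family were not called, with log2 differences from -0.13 to 0.33.

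In the flavonoid list 1 gene fell. ADT4, an arogenate dehydratase that makes phenylalanine ahead of the flavonoid enzymes, fell from 37.8 and 51.09 to 9.52 and 6.87, a log2 change of -2.37 (SE 0.32, limma adjusted p = 0.0306). The other 18 of 19 measured flavonoid genes were not called by limma. Over the 19 genes the median was -0.47, and 12 were lower in both double mutant libraries, beside 29.4% of all genes. An unadjusted p under 0.05 was found for 7 of the 19, beside 21.1% of all genes. By edgeR 1 was called and by DESeq2 4, all lower. CHS, chalcone synthase, stood at 758.5 and 591.2 in ag-10 and 466.8 and 307.3 in the double mutant. The remaining lists held no gene called by limma or edgeR. Of 19 circadian clock genes, at a median of 0.35, 6 had an unadjusted p under 0.05 and DESeq2 called 1 higher. Of 14 flowering time genes, at -0.13, 6 had such a p and DESeq2 called 2 lower. DESeq2 called none of 12 phosphate starvation genes (median -0.01, 1 at an unadjusted p under 0.05), of 10 heat shock genes (-0.26, 3) or of 8 mature pollen genes (0.39, 3).

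The same mutation was also compared in the Ler background, with fhy3-68 against Ler. The log2 changes there came from libraries that did not enter the log2 changes above. Both tests used the same estimate of spread for each gene, from all 8 libraries, so their calls are not independent. In Ler 605 genes were called, 3.05% of those tested. All 298 genes called in the ag-10 background had the same sign in Ler, beside 79.3% of all genes, and 227 of them were called there too. These were 76.2% of the calls in ag-10 and 37.5% of those in Ler. The genes that rose in ag-10 had a median of 1.40 there and 1.32 in Ler, and those that fell had -0.89 and -0.75. A gene called in 1 background only is not shown to differ between them.

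**Figure D4:**
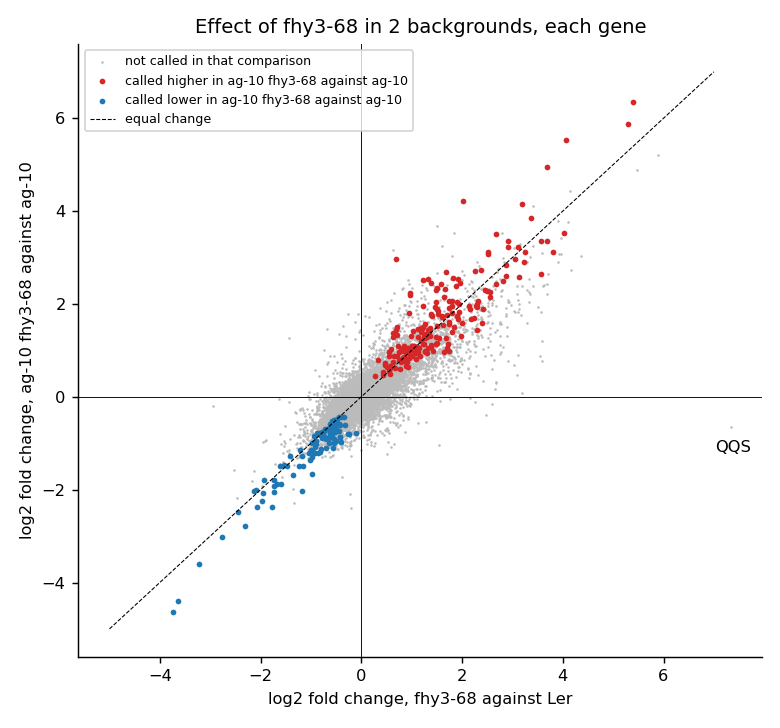
Log2 change of fhy3-68 against Ler (horizontal axis) and of ag-10 fhy3-68 against ag-10 (vertical axis) for each listed gene. Red and blue points were called higher or lower in the ag-10 background, grey points were not called there, and the dashed line marks equal change. The 298 coloured points share their sign on both axes, and QQS lies far from the line at 7.35 in Ler and -0.65 in ag-10.

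The difference between the backgrounds was tested as the interaction, the effect of fhy3-68 in ag-10 minus its effect in Ler. It was called for 1 gene, 0.00504% of those tested. QQS, an orphan gene that modulates starch content, stood at 196.4 and 207.2 in ag-10 and 164.3 and 100.3 in the double mutant, a difference of -0.65 (SE 0.25) that was not called. In Ler it stood at 0.14 and 0.32, and in fhy3-68 at 101.2 and 136.4, so that Ler was the genotype that stood apart. The interaction was -8.00 on the log2 scale (SE 0.35, limma adjusted p = 0.000776). AT3G43290 had the next smallest unadjusted p and the same pattern. It was at 0 in both Ler libraries and at 2.45 to 4.18 in the 6 others, an interaction of -3.10 (SE 0.35, limma adjusted p = 0.322).

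FHY1 and ARC5 fell in both backgrounds. FHY1 stood at 13.34 and 16.5 in Ler and 1.61 and 0.22 in fhy3-68, a log2 change of -3.64 beside -4.41 in ag-10. ARC5 stood at 75.43 and 72.76 against 13.77 and 7.85, a log2 change of -2.77 beside -3.03. The interactions were -0.77 (SE 0.68) and -0.25 (SE 0.33), with limma adjusted p = 1 for both. CEP1 had values of 0.07 and 0 in Ler and 5.8 and 12.32 in fhy3-68, lower than the 44.72 and 17.27 of the double mutant, with an interaction of 1.47 (SE 0.68, limma adjusted p = 1).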

How the data were processed

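RNA of 8 inflorescence libraries was sequenced, 2 per genotype. The deposited signal is gene reads divided by a size factor, worked out from the values: after division by the value of 1 read, 100% of values were within 0.1 of a whole read in every library. The submitters' processing notes name edgeR 3.10.0, HTSeq 0.6.1p1, TopHat2 2.0.14 and CASAVA 1.8 but assign them no role. Not given in the sources used here are build, annotation, counting mode and strand. Every listed gene reached 1 in 2 or more libraries. AG and CLV3 were not analysed here.

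The main test was limma 3.58.1 in R 4.3.3, trend option on, fitted to log2(value + 0.5), which understates changes of low genes, with 1 coefficient per genotype over 8 libraries, 4 residual and 3.41 prior degrees of freedom, and Benjamini-Hochberg adjustment over 19853 genes. Scripts were tested on simulated data. Whole reads were also tested with edgeR 4.0.16, which called 207 genes, and DESeq2 1.42.0, which called 1070. Other alternatives were other pseudocounts, a filter on the mean value, other scalings, the 4 compared libraries, a replicate block and leaving out each library. Reads in listed genes ran from 12322061 to 16816619 per library. Intervals on read ratios are exact binomial at 95% and cover counting error only.

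Named genes were the 12 largest called increases and decreases with a mean value of at least 2 over the 4 libraries, every called list member, the study's genes and the 5 smallest interaction p-values, 54 in all. Of the called list members, 1 is not reported here. Of these 13 overlap another gene model, and their reads may not have been told apart: AT5G39520, AT3G15450, BCAT2, AT3G47010, ALDH3H1, AT3G61310, MIPS2, KMD4, AUR1, SEP1, CRC, AT5G65685 and AT3G24190. The 28 lists had 496 entries, of which 18 were dropped for another reference name and 49 were not analysed here. Names came from RefSeq TAIR10.1, which matched 19811 identifiers (99.79%). FHY1 stands for AT2G37678, HB21 for AT2G18550, BAM1 for AT3G23920 and FUL for AT5G60910. The members and lists were chosen with earlier results of these data known.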

Additional observations from a re-analysis of the deposited data

Results flagged for a closer look

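The effect of fhy3-68 on QQS differed between the backgrounds, with an interaction of -8.00 on the log2 scale (limma adjusted p = 0.000776). Its value was near 0 in both Ler libraries and between 100.3 and 207.2 in the 6 libraries that carried ag-10, fhy3-68 or both.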

How the results depend on the processing

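The count of 298 called genes (197 higher, 101 lower) stayed within 1.5 times under both other pseudocounts, the filter on the mean value, both other scalings and edgeR, with 207 to 300 genes called. DESeq2 called 1070 genes (764 higher, 306 lower) and 3 interactions in place of 1. The fit of the 4 compared libraries called 504 (319 higher, 185 lower), of which 223 were shared with the 298. The labels give the same replicate numbers to each genotype, and same-numbered ag-10 and double mutant libraries deviated together (correlation 0.277), but 2 pairs do not show that the numbers pair the samples. With the replicate block 927 genes were called (621 higher, 306 lower), including all 298. Leaving out 1 library gave 1 to 1820 called genes, 0 to 1012 higher and 1 to 808 lower, and 1 to 3 interactions. Without ag-10 replicate 1 no gene was called higher, and 2510 genes had an unadjusted p under 0.05 in either direction. Where 1 library of a genotype was left, it was assumed to vary like the others. Of the 43 named genes called, edgeR kept 33, the 4 libraries 41, and DESeq2 and the replicate block all 43. BCAT2, AT5G39520, TPS8, NIT2, MIPS2 and AT1G11700 were lost under 3 or more of the 9 alternatives other than leaving out a single library. SEP2 was called with DESeq2 alone (adjusted p = 0.0276, over a range of 0.0276 to 0.343). CRC turned sign without ag-10 replicate 2 (from -0.08 to 0.03), and single-library omissions took it from -0.19 to 0.03. The cause of these shifts was not tested.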

Other observations

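Genes in this paragraph were chosen after their values were seen. A cluster of 5 neighbouring glutaredoxin genes, AT4G15660, AT4G15670, AT4G15680, AT4G15690 and AT4G15700, and a further member, AT5G18600, were all called higher in the double mutant than in ag-10, with log2 changes from 1.44 to 3.07. AT5G18600 had the highest values, 7.05 and 7.51 in ag-10 and 30.86 and 32.93 in the double mutant. AT4G15690 stood at 0.63 and 0.31 against 6.66 and 8.55. The neighbouring genes are similar in sequence, so reads may not have been told apart among them. BT5, of the same BTB family as BT2, was called higher, at 10.93 and 18.31 against 105.7 and 178.1, a log2 change of 3.23 (SE 0.46, limma adjusted p = 0.0341). NAC047 was called higher, at 1.62 and 1.07 against 21 and 11.18. In the double mutant, 7 of the 197 genes called higher had more than 2 times the value in replicate 1 that they had in replicate 2, and 3 had the reverse.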
